A study of Mus musculus with 6 samples.

Results

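Imprinted genes are read mainly from 1 parental copy, and 10 of them are described here in embryonic fibroblasts: Dlk1, Meg3, H19, Peg3, Peg10, Mest, Grb10, Plagl1, Ndn and Phlda2. They were chosen by name, knowing that Dlk1 was among the genes most raised on the replicate 2 arrays of this series, and every probe that carries 1 of these names was taken. That gave 22 of the 41174 probes on the array, and 9 of the 10 genes were among the 15646 genes bright enough to be compared. Mouse embryonic fibroblasts labelled as infected with SKO were profiled at day 8 of reprogramming on 1-colour arrays with Cy3-labelled total RNA. The series asks which genes Gadd45a, a stress-inducible growth arrest gene linked to DNA demethylation, regulates in that process. The 3 groups received SKO with Gadd45a, SKO with G39A, which the labels call a negative mutant of Gadd45a, or SKO with Flag, and each group has 2 arrays numbered 1 and 2. All groups share the SKO infection, which the labels do not spell out, and a culture of 6 days after infection in medium with serum and lif. No label gives the mouse strain, the age of the embryos, a promoter or whether the 2 replicates came from separate cultures, so their spread may be technical.

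Between 57.0% and 62.9% of the spots were well above background on each array, no spot was saturated, and the number of arrays limits the precision. All 3 replicate 2 arrays share a slide, the Gadd45a and Flag replicate 1 arrays share another, and G39A replicate 1 lies on a slide of its own, so slide and replicate number cannot be told apart within a group. Of the fibroblast markers, 12 of 12 were well above background on all 6 arrays. Pou5f1, the core pluripotency factor, gave signals of 4971, 5522 and 3835 on the Gadd45a, G39A and Flag replicate 1 arrays and was not well above background on any replicate 2 array, at least 228-fold lower. If the letter O in SKO means an introduced mouse Pou5f1 that this probe can read, the replicate 2 signal goes against the label, and each direction between the replicates is that of the arrays as labelled. If S likewise means a readable Sox2, the replicate 1 signal goes against the label. Sox2 gave 8.27, 10.9 and 8.36 there, not well above background, and was well above it on 1 replicate 2 array. Klf4 gave 19149, 20814 and 19677 on the replicate 2 arrays, against 14913, 13927 and 16218 on the replicate 1 arrays. The Gadd45a probe gave 2061 and 540 on the Gadd45a arrays, 2269 and 1210.3 on the G39A arrays, and 2378 and 1013 on the Flag arrays (replicates 2 and 1). It was not brighter in the group labelled Gadd45a. Whether it reads the introduced copy was not tested, so it checks no label.

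In imprinting, a mark of DNA methylation set in the egg or the sperm silences 1 parental copy, and the genes concerned lie in clusters that share a control region. Many of them act on growth of the fetus and placenta, and several are abundant in mesenchymal cells of the embryo and fall after birth. Within the Dlk1-Dio3 cluster, Dlk1 is read from the paternal copy and the long noncoding RNA Meg3 from the maternal copy, and loss of the maternal RNAs of this cluster is a known defect of some induced pluripotent mouse lines. Within the H19-Igf2 cluster, H19 is a maternal long noncoding RNA and Igf2 a paternal growth factor. The array does not separate the parental copies, so every value below is the sum of both.

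All levels are scaled signals: the processed signal of a probe divided by its array's 75th percentile and multiplied back to the average percentile of the 6 arrays. The brightness of a probe depends on its sequence, so levels are compared between arrays for 1 probe and never between probes. Differences are in log2 units, and probe positions are given in the mouse build mm9 with the base of the transcript at which the probe starts. The exon or untranslated region was not looked up, since no annotation of that build was used here. Replicate 2 is set against replicate 1 as a description without a test, because that contrast helped to choose the genes.

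**Figure D1:**
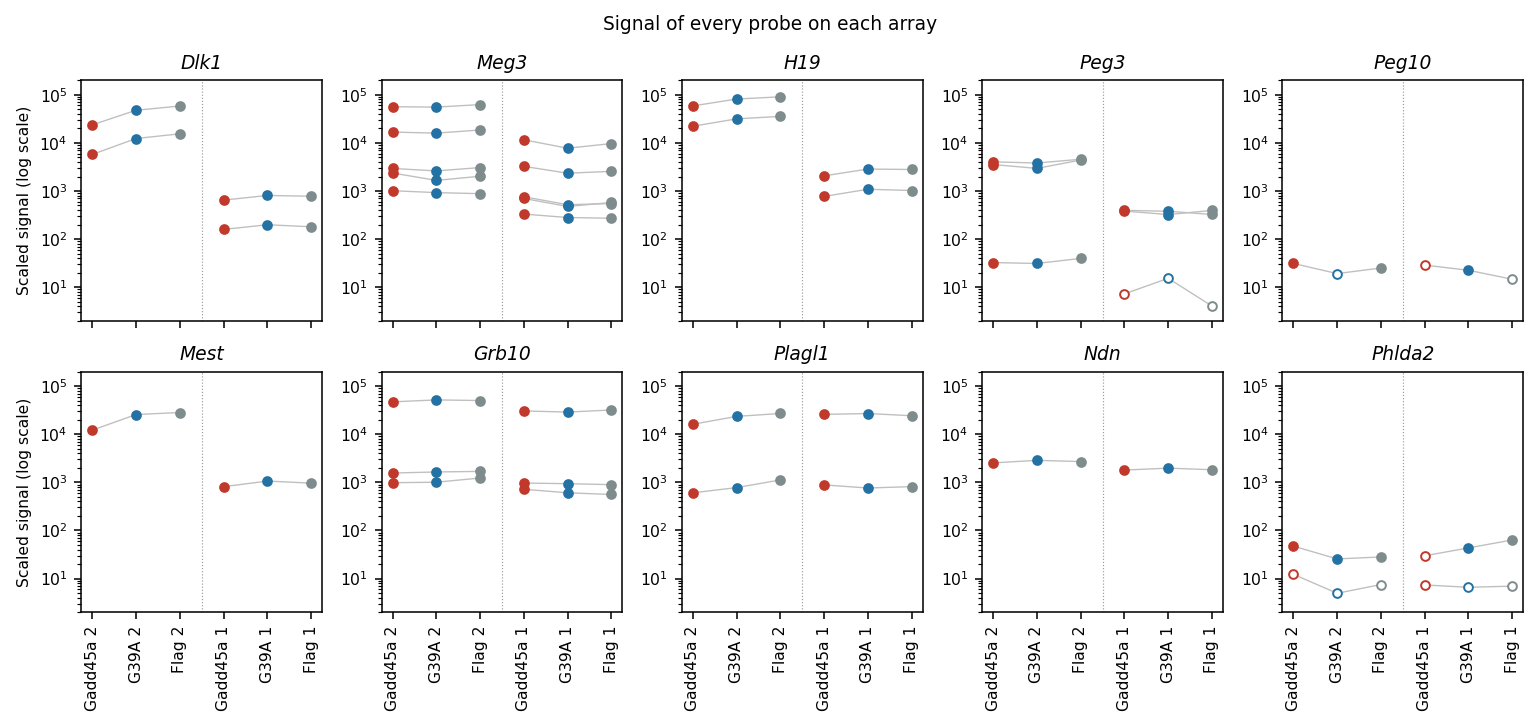
Scaled signal (log axis) of each of the 22 probes of the 10 imprinted genes on the 6 arrays, replicate 2 left of replicate 1, with lines joining the points of 1 probe and open circles for arrays where it was not well above background. Dlk1, H19, Mest, Peg3 and Meg3 lie higher on every replicate 2 array than on any replicate 1 array, whereas Plagl1 and Phlda2 overlap and Peg10 stays near the background.

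Dlk1 encodes a membrane protein related to the Notch ligands that holds back adipocyte differentiation, and it showed the greatest replicate difference of the 10. Its brighter probe (chromosome 12, 110698667 to 110698703, transcript base 1405) gave 23693, 47569.5 and 58384 on the Gadd45a, G39A and Flag replicate 2 arrays, against 647, 808 and 778 on the replicate 1 arrays. The replicates did not overlap, and the Gadd45a array was the lowest of its replicate in both. The replicate 2 signal was on average 54.5-fold the replicate 1 signal, a log2 difference of 5.77 ± 0.53 (SD over the 3 groups), and this ranked Dlk1 7 among 15646 genes. A second probe (110698428 to 110698487, base 1220) gave 5747, 12320.4 and 15423 against 159, 199 and 181, a difference of 5.85 ± 0.63. The 2 probes thus repeated each other in size and in the order of the replicate 2 arrays.

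H19 showed a difference nearly as large and more even between the groups. Its brighter probe (chromosome 7, 149761769 to 149761828, base 2223) gave 58607, 81474 and 90604 on the Gadd45a, G39A and Flag replicate 2 arrays, against 2065, 2858 and 2800.2 on the replicate 1 arrays. The difference was 4.89 ± 0.11 (SD over 3 groups), or 29.7-fold, and its rank was 23. The other probe (149762018 to 149762165, base 231) spans 148 genomic bases, more than its own 60, and lies close to the first in the genome. The 2 transcript bases are further apart than these positions allow, so they cannot be counted along 1 transcript. The probe at base 231 gave 22150.3, 31539 and 35569.8 against 772, 1088 and 1023, a difference of 4.94 ± 0.16, so both probes moved alike. The 2 probe sequences are shown because they do not overlap and gave nearly the same difference.
H19 base 231: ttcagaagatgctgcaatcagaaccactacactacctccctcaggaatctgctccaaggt
H19 base 2223: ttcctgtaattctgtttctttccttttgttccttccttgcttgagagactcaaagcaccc

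Meg3 was already bright on the replicate 1 arrays and was brighter still on the replicate 2 arrays. Its brightest probe (chromosome 12, 110809678 to 110809737, base 1651) gave 56504, 55338 and 62451 on the Gadd45a, G39A and Flag replicate 2 arrays, against 11586, 7746 and 9669 on the replicate 1 arrays. The difference was 2.60 ± 0.29, or 6.08-fold, with rank 292. The replicates did not overlap, and Gadd45a was the highest array of replicate 1 but not of replicate 2. Its 5 probes spread over different stretches of the locus, and the difference was not the same in each of them. The probe at base 1443 (110787974 to 110796459, a span of 8486 bases across a junction) differed by 2.66 and that at base 1783 (110797172 to 110797231) by 2.31. The probes at bases 4169 (110799558 to 110799617) and 5509 (110800898 to 110800957) differed by 1.68 and 1.73. On the plus strand the probe at base 1651 lies beyond both of them in the genome. The bases therefore cannot be counted along 1 transcript, and the difference does not simply fall along the locus. Each of the 5 was well above background on all 6 arrays and none overlapped between the replicates, so the size but not the direction depended on the probe. Their sequences are printed so that the stretches read by each can be seen.
Meg3 base 1443: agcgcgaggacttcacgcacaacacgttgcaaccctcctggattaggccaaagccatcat
Meg3 base 1651: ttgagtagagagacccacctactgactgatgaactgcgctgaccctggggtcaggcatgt
Meg3 base 1783: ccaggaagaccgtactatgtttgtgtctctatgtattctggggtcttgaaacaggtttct
Meg3 base 4169: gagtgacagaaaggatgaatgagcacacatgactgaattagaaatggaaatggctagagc
Meg3 base 5509: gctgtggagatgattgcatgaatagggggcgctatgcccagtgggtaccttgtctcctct

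Mest encodes an enzyme of the hydrolase fold, read from the paternal copy, that is abundant in embryonic mesoderm. Its single probe (chromosome 6, 30698279 to 30698338, base 2377) gave 12118, 25578 and 28194 on the Gadd45a, G39A and Flag replicate 2 arrays, against 809.995, 1061 and 961 on the replicate 1 arrays. The replicates did not overlap, with a difference of 4.46 ± 0.50, or 22.0-fold, and rank 38. As with Dlk1, the Gadd45a array was the lowest of the 3 within each replicate.

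Peg3, a paternally read zinc finger protein, followed with a difference of 3.50 ± 0.09, or 11.3-fold, and rank 123. Its probe at base 6461 (chromosome 7, 6658774 to 6658833) gave 4037, 3816 and 4569.6 on the Gadd45a, G39A and Flag replicate 2 arrays, against 383, 324 and 395 on the replicate 1 arrays. The probe at base 4795 (6660440 to 6660499) gave 3543, 2953 and 4396 against 396, 379 and 326, a difference of 3.29 ± 0.41. The remaining Peg3 probe (6674944 to 6675002, base 4445) was well above background on the 3 replicate 2 arrays only, at 31.2 to 39.8, and was not compared. The 2 compared probes kept the replicates apart by about the same amount.

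The remaining genes did not share this size of difference. Grb10, an adaptor that restrains insulin and growth factor receptors, gave 46968, 51517 and 50035 on the Gadd45a, G39A and Flag replicate 2 arrays, against 30376, 28798 and 31800.2 on the replicate 1 arrays (chromosome 11, 11830965 to 11831024, base 4566). The replicates did not overlap, but the difference was only 0.71 ± 0.12, and 0.80 and 0.77 at the probes at bases 320 (11870574 to 11870633) and 1951 (11833580 to 11834228). Ndn, encoding necdin, a MAGE-family protein that restrains proliferation, gave 2533, 2858 and 2698 against 1797, 1968 and 1824 (chromosome 7, 69493847 to 69493906, base 684), a difference of 0.53 ± 0.04. At their brightest probes both genes were thus higher on every replicate 2 array by less than 2-fold, whereas the Grb10 probe at base 1951 gave 1227 against 558 in Flag.

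Plagl1, a zinc finger transcription factor that is known in mice to act on other imprinted genes, was bright on every array and did not part the replicates. It gave 16046, 23415 and 26921 on the Gadd45a, G39A and Flag replicate 2 arrays, against 25767, 26857 and 24151 on the replicate 1 arrays (chromosome 10, 12851280 to 12851339, base 5039). The only value well away from the rest was that of Gadd45a replicate 2, and the mean difference was -0.24 ± 0.42. The second Plagl1 probe (12849470 to 12849529, base 3229) gave 605, 776 and 1119 against 883, 761 and 813, again with Gadd45a replicate 2 lowest. Phlda2, a maternally read growth restrainer of the placenta, was near the background, at 47.2, 25.6 and 28.1 against 29.7, 43.3 and 63.3 (chromosome 7, 150687474 to 150687533, base 656). That probe was well above background on 5 of the 6 arrays, not on Gadd45a replicate 1, and the overlapping probe at base 666 (150687464 to 150687523) on none. Peg10, a paternal gene derived from a retrotransposon and needed in the placenta, had 1 probe (chromosome 6, 4709867 to 4709926, base 6016) at 31.2, 19.2 and 25.1 against 28.9, 22.5 and 14.7. It was well above background on 3 of 6 arrays, and neither Peg10 nor the second Phlda2 probe entered a comparison.

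In all, 5 of the 9 compared genes were at least 2-fold higher on the replicate 2 array in all 3 groups, where 8.03% of all genes were, and 0 were at least 2-fold lower, where 8.27% were. Counting any size, 7 of 9 were higher in all 3 groups, against 45.5% of all genes, and 0 were lower in all 3, against 31.3%. The median difference was 2.60 over the 9 genes and 0.11 over all genes. Since the contrast helped to choose these genes, nothing is read from these shares.

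**Figure D2:**
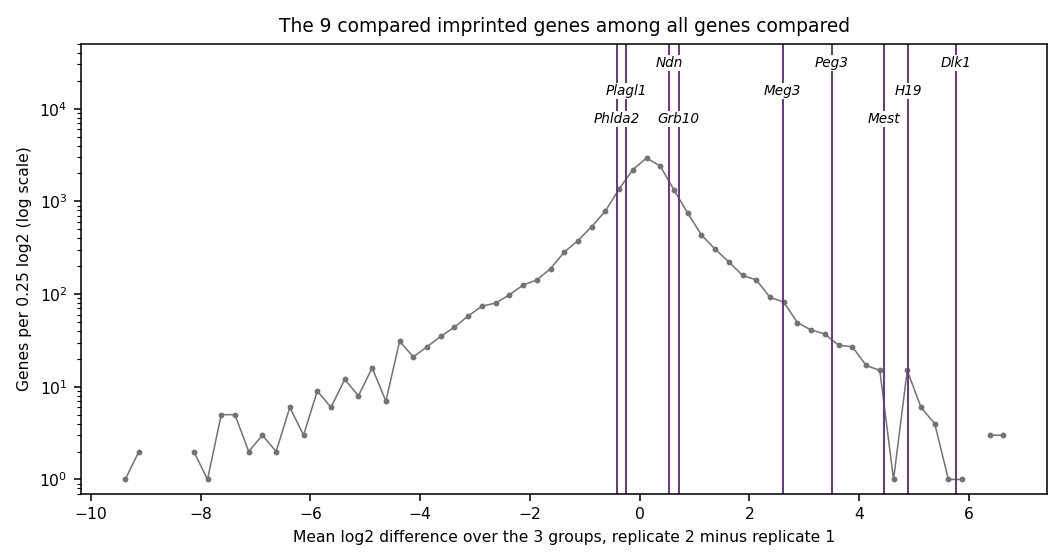
Number of genes (log axis) by mean log2 difference of replicate 2 minus replicate 1 over the 3 groups, in steps of 0.25 over 15646 genes, with the 9 compared imprinted genes as vertical lines. Dlk1, H19 and Mest lie at the far right at 5.77, 4.89 and 4.46, and Plagl1 and Phlda2 lie just left of 0 at -0.24 and -0.42, the value of Phlda2 including an array not well above background.

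**Figure D3:**
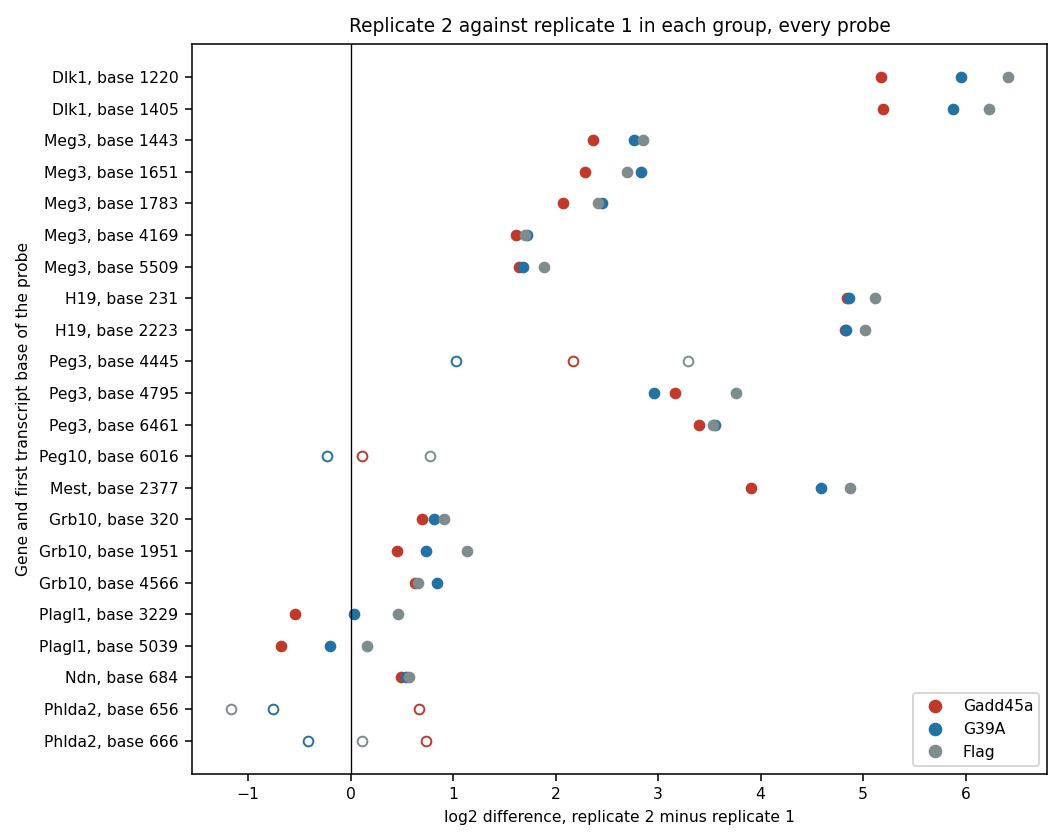
Log2 difference of replicate 2 minus replicate 1 of the imprinted genes, 1 row per probe and 1 point per group, with open circles for probes not well above background on all 6 arrays. The probes of Dlk1 and of H19 lie together, whereas those of Meg3 split between means of 1.68 and 2.66.

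Several sums of cell markers parted by replicate number, while the epithelial, cartilage and neural sums overlapped between the replicates. The summed scaled signal of the 12 fibroblast markers was 758338 to 818349 on the replicate 2 arrays and 399952 to 464680.0 on the replicate 1 arrays. Of these, Vim (91595 to 93578 against 82259 to 119825) and Prrx1 (29275 to 37597 against 27568 to 31091) overlapped between the replicates. The pluripotency list, with 1 to 2 of 9 measured markers above background on replicate 2 and 3 to 4 on replicate 1, summed to 274 to 295 and 4312 to 5933. Most of the replicate 1 sum is Pou5f1 itself, given above, and Dppa5a of the same list was slightly higher on replicate 2, at 219 to 225 against 174 to 208. Zfp42 was above background on the replicate 1 arrays only, at 160 to 369. Nanog was above background on 2 replicate 1 arrays and 0 replicate 2 arrays, and Sox2 on 0 and 1 in that order. The skeletal muscle sum was 18285 to 21551 against 2731 to 3013, with the defining Myod1, Myog and Myf5 not above background on any array. Tnnt1 of that list went the other way, at 175 to 210 against 241 to 272. The adipocyte sum was 19203 to 25775 against 8990.2 to 9524, and the macrophage sum 5949 to 9369.9 against 2156 to 2309.9, with Ptprc not above background on any array. On replicate 2 the macrophage sum is mostly Lyz2, at 4452 to 7820 against 726 to 840. Cd68 (192 to 213 against 354 to 439) and Itgam (19.7 to 60.7 against 210 to 302) of that list went the other way. Of 10 epithelial markers, 4 to 5 were above background on the replicate 2 arrays and 8 on the replicate 1 arrays, where alone Cdh1, Epcam and Ocln were seen, and the sums were 4225 to 6832 and 5776 to 6233. Krt7 was higher on replicate 2 (2424 to 3735 against 403 to 434) and Krt8 lower (134 to 223 against 2198 to 2631). The trophoblast sum was 179 to 416 against 799.6 to 2714 and is mostly Prl3d1 (57.1 to 284 against 667 to 2532). Plac1 of that list was above background on the replicate 2 arrays only, at 44.6 to 61.1, and Tfap2c on the replicate 1 arrays only. The cartilage sum was 8081 to 12906 against 7571 to 10013, and the neural sum 30208 to 38098 against 31079 to 38867. Within the cartilage list Col2a1 was lower on replicate 2 (1038 to 1265 against 3417 to 4812). Sox9 (1046 to 1390 against 123 to 179) and Comp (153 to 824 against 65.8 to 74.1) were higher. The part of these markers in the imprinted genes' differences was not tested. In bulk RNA, fewer cells of a type and less RNA per cell cannot be told apart.

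The neighbours in the same imprinted clusters were read from a list of 39 genes, of which 36 were on the array and 27 compared. At least 2-fold in all 3 groups, 7 of the 27 were higher (25.9%, where 8.03% of all genes were) and 6 lower (22.2%, where 8.27% were). Their median difference was -0.01, with large differences of both signs. In the Dlk1-Dio3 cluster, the maternal noncoding RNAs Rian and Mirg were higher by 2.23 and 2.26, close to Meg3. Rian gave 7147, 7647 and 7989.7 on the Gadd45a, G39A and Flag replicate 2 arrays, against 1507, 1675 and 1686 on the replicate 1 arrays. Genes read from the maternal and from the paternal copy of this cluster thus both lay higher.

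Igf2, the fetal growth factor beside H19, gave 78588, 91266 and 95143 on the Gadd45a, G39A and Flag replicate 2 arrays, against 6693, 7586 and 6802 on the replicate 1 arrays. Its difference of 3.65 had the direction of H19, although the 2 genes are read from opposite copies. In the neighbouring Kcnq1ot1 cluster, the cell cycle inhibitor Cdkn1c gave 34114, 36659.8 and 45698 against 10792, 10611 and 12212, a difference of 1.78. Kcnq1ot1, the paternal noncoding RNA that silences the cluster, was lower by -0.59, at 699, 739.8 and 682 against 1039.5, 980.4 and 1174. The members of that cluster therefore did not share a direction.

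Elsewhere some neighbours lay to the same side as the gene beside them and others did not. Beside Peg3, Usp29 was higher by 1.63, at 76.7, 59.4 and 77.0 on the Gadd45a, G39A and Flag replicate 2 arrays against 18.7, 23.5 and 26.9 on the replicate 1 arrays, of which 2 were above background. Zim1 was above background on the replicate 2 arrays only, at least 3.96-fold higher. Both were named after their values were seen. Copg2, which overlaps the end of Mest, differed by -0.11 where Mest differed by 4.46. In the cluster of Peg10, which was itself too dim to compare, Sgce, a sarcoglycan read from the same control region, was higher by 1.04, Asb4 was higher by 1.81 and Ppp1r9a was lower by -3.12. Ddc and Cobl beside Grb10 were lower by -3.21 and -6.33, Cobl at 144, 196 and 219 on the Gadd45a, G39A and Flag replicate 2 arrays against 14521, 14186 and 15523 on the replicate 1 arrays. Snrpn and Snurf, which share a control region with Ndn, were lower by -1.74 and -1.93, and Ube3a of the same region differed by 0.09. Magel2 beside Ndn was above background on the replicate 1 arrays only, at least 12.7-fold lower on replicate 2, and was also named after its value was seen. Phactr2 beside Plagl1 was lower by -0.80, where Plagl1 differed by -0.24.

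**Figure D4:**
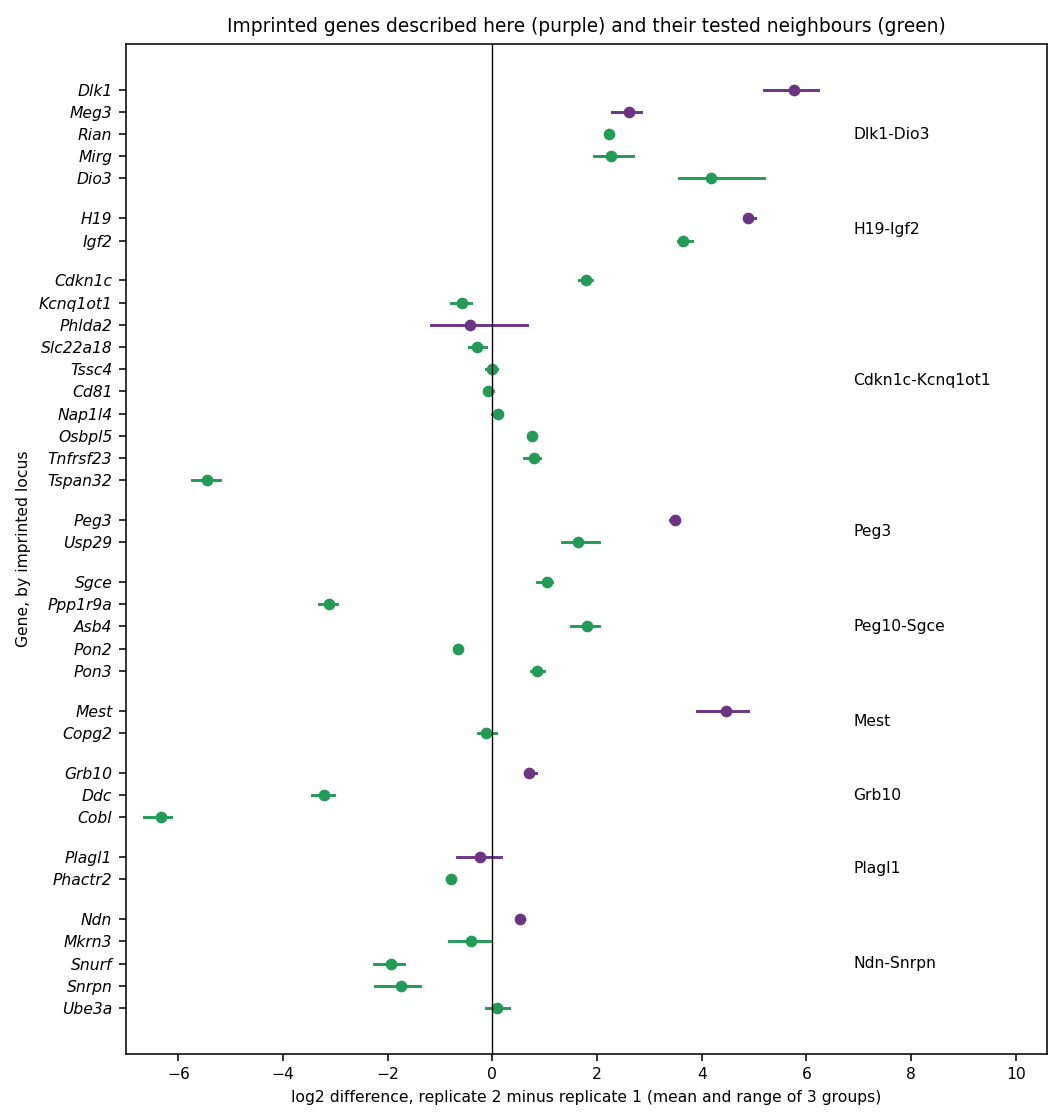
Mean log2 difference of replicate 2 minus replicate 1 (points) and the range over the 3 groups (lines), grouped by imprinted cluster. Means of both signs occur within the Kcnq1ot1, Peg10, Mest, Grb10 and Ndn clusters, in that of Mest through Copg2 at only -0.11. Dio3, Tspan32, Usp29 and Phlda2 include arrays not well above background, so their points rest partly on dim signals (Dio3, Tspan32 and Usp29 are named because the picture shows them).

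Of 24 further imprinted genes at other loci, 22 were on the array and 18 compared, with 4 at least 2-fold higher in all 3 groups (22.2%, where 8.03% of all genes were), 0 lower (8.27% of all genes) and a median of 0.26. Igf2r, the maternal receptor that clears Igf2, was higher by 1.68, and the amino acid transporter Slc38a4 by 2.29, with 1209, 1313 and 1422 on the Gadd45a, G39A and Flag replicate 2 arrays, against 268, 249 and 288 on the replicate 1 arrays. Ampd3, an AMP deaminase, was higher by 1.86 and Blcap by 1.096, while Nnat, which shares a locus with Blcap, was lower by -1.27. Gnas differed by 0.13, with 1 of its 4 probes of the opposite sign. Of 19 genes that keep imprints or write and erase DNA methylation, 17 were compared: 0 were at least 2-fold higher (8.03% of all genes) and 2 were lower (11.8%, where 8.27% of all genes were), with a median of -0.27. Zfp57, the zinc finger protein that binds methylated imprinted regions, was lower by -1.54, at 65.5, 55.1 and 65.5 against 223, 162 and 163. Its partner Trim28 differed by 0.37, the maintenance methyltransferase Dnmt1 by -0.38, its recruiter Uhrf1 by -0.90, the insulator protein Ctcf by -0.22 and the methylcytosine oxidase Tet1 by 0.84, and Dppa3 was not above background on any array. The other gene at least 2-fold lower in all 3 groups was Tet2, at -1.67, and Tet3 differed by -0.43. These oxidases were named after their values were seen.

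The genes whose pattern over the 6 arrays was most like that of Dlk1 were sought by the Euclidean distance between log2 values centred on each gene's mean, over 14092 other genes above background on all 6 arrays. The nearest were Gas1 at 0.79, Ogn at 0.89 and Aspn at 1.003, a growth arrest membrane protein and a pair of small leucine-rich matrix proteins. Gas1 gave 5116, 7093 and 7267 on the Gadd45a, G39A and Flag replicate 2 arrays, against 109, 179 and 175 on the replicate 1 arrays. Among the imprinted genes, H19 was at rank 9 and Mest at rank 21, followed by Peg3 at 86 and Meg3 at 225. The 6 arrays share 3 slides and 2 clusters of replicates, so these distances mostly describe the replicate difference.

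Comparing the groups within a replicate removes that difference, and there the Gadd45a arrays were lower than the Flag arrays for 6 of 9 genes in both replicates, where 33.1% of all genes were. Higher in both were 0 of 9, where 23.4% of all genes were. Dlk1 was 0.41-fold of Flag in replicate 2 and 0.83-fold in replicate 1, log2 differences of -1.30 and -0.27. Mest was 0.43-fold and 0.84-fold, at -1.22 and -0.25, and H19 was 0.65-fold and 0.74-fold, at -0.63 and -0.44. Peg3 (-0.18 and -0.04), Grb10 (-0.09 and -0.07) and Ndn (-0.09 and -0.02) differed by little. Dlk1 and Mest were the 2 of 9 at least 2-fold lower in replicate 2, where 1.96% of all genes were, and neither was in replicate 1, where only Phlda2 was (1 of 9, against 1.33% of all genes). That call rests on a Phlda2 signal that was not well above background on Gadd45a replicate 1 (29.7, where the lowest signal well above background was 33.8), against 63.3 in Flag. At least 2-fold higher were 0 of 9 in replicate 2 and in replicate 1, where 1.89% and 0.511% of all genes were.

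Second probes repeated this for Dlk1 and H19 but not for Peg3 and Grb10. The Dlk1 probe at base 1220 differed by -1.42 in replicate 2 and -0.18 in replicate 1, and the H19 probe at base 231 by -0.68 and -0.41. The Peg3 probe at base 4795 differed by -0.31 in replicate 2 and 0.28 in replicate 1. For Grb10 the values were -0.11 and 0.11 at base 320, and -0.32 and 0.36 at base 1951. Plagl1 differed by -0.75 in replicate 2 and 0.09 in replicate 1 at base 5039, and by -0.89 and 0.12 at base 3229, so its lower value was limited to Gadd45a replicate 2. Meg3, which lies in the same cluster as Dlk1, did not follow it, at -0.14 in replicate 2 and 0.26 in replicate 1. Its probes at bases 4169 and 5509 differed by 0.20 and 0.23 in replicate 2 and by 0.29 and 0.47 in replicate 1. Phlda2, near the background, was higher by 0.75 in replicate 2, and in replicate 1 no exact difference can be given.

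Markers of other cell types also differed between the groups within replicate 2, on the same Gadd45a array. The cartilage sum was 8081 in Gadd45a, 11472 in G39A and 12906 in Flag, mostly from Col11a1 (5692, 8374 and 9230). Its member Comp gave 153, 644 and 824, whereas in replicate 1 Comp was highest in Gadd45a (74.1, 72.7 and 65.8). Acan of that list gave 134, 161 and 122 in replicate 2, lowest in Flag. The adipocyte sum was 19203, 24853 and 25775 in that order of groups, the macrophage sum 5949, 6738 and 9369.9, and the epithelial sum 6832, 5137 and 4225. The fibroblast sum was 818349, 777725 and 758338. In replicate 1 the cartilage sum was 7571, 8932 and 10013, the adipocyte sum 8990.2, 9342 and 9524, the macrophage sum 2156, 2309.9 and 2179.7, the epithelial sum 6233, 5867 and 5776, and the fibroblast sum 399952, 464680.0 and 406513. The cartilage and adipocyte sums were thus lowest, and the epithelial sum highest, in Gadd45a in both replicates. In replicate 2 the epithelial sum is mostly Krt7 (3735, 2841 and 2424) and Krt18 (1912, 949 and 737), both highest in Gadd45a. Krt8 (186, 223 and 134) and Krt19 (959, 1088 and 886) were highest in G39A, and Cdh1, Epcam and Ocln were not above background. In replicate 1 Krt8 (2631, 2370 and 2198) and Krt18 (980, 789 and 839) were highest in Gadd45a. Cdh1 (353, 419 and 358) and Epcam (539, 621 and 580) were lowest in Gadd45a there. The adipocyte sum is mostly Lpl (13568, 20415 and 20716 in replicate 2), which was lowest in Gadd45a in both. Fabp4 (4041, 2998 and 3636) and Pparg (1574, 1412 and 1378) of that list were highest in Gadd45a in replicate 2. In replicate 1 Pparg was again highest in Gadd45a (341, 198 and 264) and Fabp4 was not (106, 99.3 and 209). The part of these markers in the differences of Dlk1, Mest and H19 was not tested.

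None of these differences passed the test. With limma over all 6 arrays and no block, 0 of 9 imprinted genes and 0 of 15646 genes had an adjusted p under 0.05 for Gadd45a against Flag (0.00% of all genes). At an unadjusted p under 0.05 these were 0 of 9 and 97 genes (0.62%). The difference was -0.78 ± 3.36 (SE, n = 2 per group) for Dlk1, -0.73 ± 2.60 for Mest and -0.53 ± 2.85 for H19, each with limma's adjusted p = 0.99996, because the replicates of each group stood so far apart. Blocking on the replicate number gave SE of 0.27, 0.26 and 0.10, with limma's adjusted p at 0.563, 0.568 and 0.445. Their unadjusted p in that fit were 0.0388, 0.0415 and 0.00507 in limma, and 3 of 9 imprinted genes had an unadjusted p under 0.05, where 8.6% of all genes did. With slide as a fixed block, Dlk1 and Mest had limma's adjusted p = 0.698 and H19 0.666. No imprinted gene kept the Gadd45a and Flag arrays from overlapping, where 7.73% of all genes were lower and 5.16% higher without overlap. Groups part only when their difference exceeds that between the replicates. For Dlk1, H19, Mest, Peg3 and Meg3 overlap was thus nearly fixed beforehand, and nothing is read from it.

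**Figure D5:**
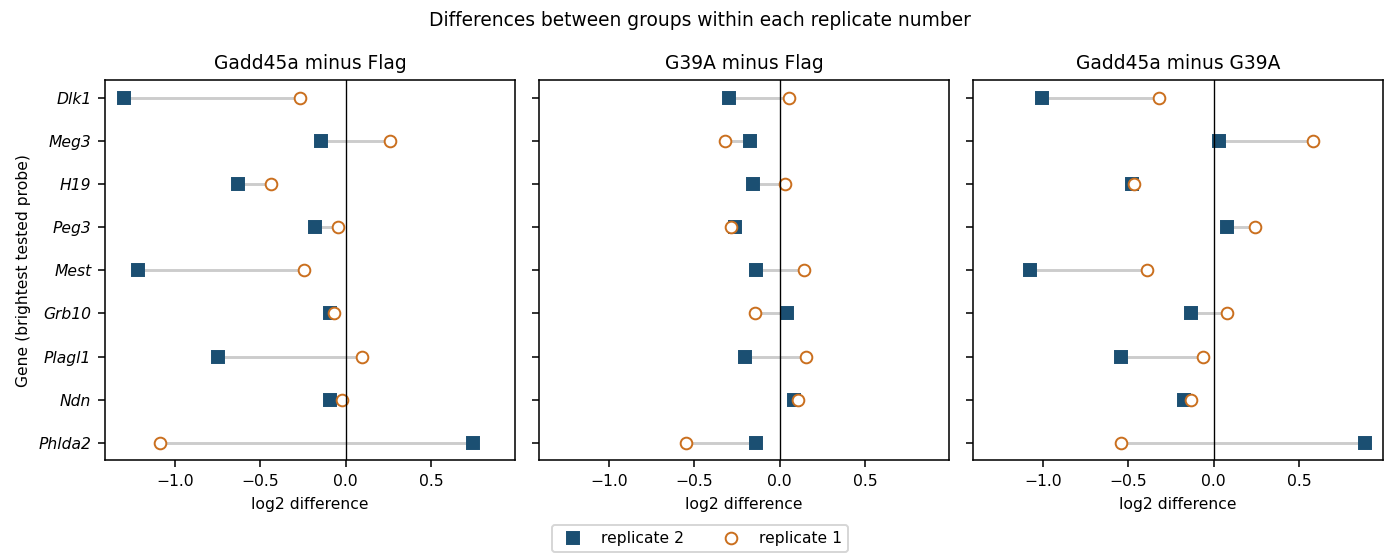
Log2 difference between groups of the 9 compared imprinted genes within replicate 2 and within replicate 1, for Gadd45a minus Flag, G39A minus Flag and Gadd45a minus G39A, with filled squares for replicate 2, open circles for replicate 1 and a line joining them. In replicate 2 the Gadd45a array lies lower for Dlk1 and Mest against both other groups, by -1.01 to -1.30, whereas the points of G39A minus Flag lie between -0.55 and 0.15. The replicate 1 points of Phlda2 that involve Gadd45a rest on a signal not well above background.

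Against G39A, which shares the infection but carries the mutant, the Gadd45a arrays gave a similar picture, from the same Gadd45a arrays. Dlk1 was lower by -1.01 in replicate 2 and -0.32 in replicate 1, Mest by -1.08 and -0.39, H19 by -0.48 and -0.47, Plagl1 by -0.55 and -0.06, and Ndn by -0.17 and -0.13. These are the 5 of 9 lower in both replicates, where 29.3% of all genes were, and Meg3 (0.03 and 0.58) and Peg3 (0.08 and 0.24) were the 2 of 9 higher in both, where 30.8% were. The Plagl1 probe at base 3229 was lower in replicate 2 only, at -0.36 and 0.22. Dlk1 and Mest were again the 2 of 9 at least 2-fold lower in replicate 2 (1.25% of all genes), and 0 were in replicate 1 (1.67%). At least 2-fold higher were 0 of 9 in each, where 1.35% and 1.2% of all genes were. In replicate 1 this comparison crosses slides. By limma without a block 0 of 9 and 0 of 15646 genes passed, and 0 and 114 (0.729%) had an unadjusted p under 0.05. Under the block also 0 passed, at limma's adjusted p = 0.521 for H19, 0.552 for Mest and 0.565 for Dlk1, and 2 of 9 (H19 and Mest) were under 0.05 before adjustment, where 8.88% of all genes were. No imprinted gene kept these 2 groups from overlapping, where 7.61% of all genes were lower and 6.37% higher without overlap. As against Flag, nothing is read from this, given the large replicate differences.

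G39A and Flag arrays lay close together for most of these genes. Dlk1 differed by -0.30 in replicate 2 and 0.05 in replicate 1, Mest by -0.14 and 0.14, H19 by -0.15 and 0.03, and Plagl1 by -0.20 and 0.15. Meg3 (-0.17 and -0.32), Peg3 (-0.26 and -0.28) and Phlda2 (-0.14 and -0.55) were the 3 of 9 lower in both, where 28.5% of all genes were, and Ndn (0.08 and 0.11) was the 1 of 9 higher in both, where 19.3% were. The Peg3 probe at base 4795 did not repeat this, at -0.57 and 0.22. Of the other Meg3 probes, that at base 4169 differed by 0.07 and 0.05, and the rest were lower in both. By limma without a block 0 of 9 and 0 of 15646 genes passed, and 0 and 82 (0.524%) had an unadjusted p under 0.05. Under the block 1 of 9 (Peg3) was under 0.05 before adjustment, where 2.89% of all genes were. At least 2-fold lower were 0 of 9 in replicate 2 and in replicate 1, where 0.952% and 1.62% of all genes were, and at least 2-fold higher also 0 of 9, where 0.984% and 1.23% were. No imprinted gene kept the arrays of G39A and Flag from overlapping, where 5.28% of all genes were lower and 4.94% higher without overlap. Here too nothing is read from the overlap, given the large replicate differences. The differences were -0.12 for Dlk1 and 0.0017 for Mest, with SE of 3.36 and 2.60 without a block and 0.27 and 0.26 with it (n = 2 per group). A p that misses the threshold does not show that G39A and Flag act alike. The 3 comparisons share arrays pair by pair and are not independent of each other.

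Promoters of 8 of the 10 genes were found in the RefSeq table (GRCm38.p6), as 12 windows that run from 250 bases before a transcript start to 50 after it. H19 and Peg10 had no entry. The hexamer TGCCGC, which Zfp57 binds when its CpG is methylated, was searched on both strands without counting overlaps with other motifs. It was present in 5 of the 12 windows and 4 of the 8 genes (Meg3, Mest, Grb10 and Plagl1), and in 11.6% of all 32851 windows. The windows of the 8 genes held a median of 13 CpG, and all windows 7. Some windows overlap, and a match is a description of letters, not of binding. The windows of the genes with the greatest replicate differences are shown, with the hexamer or its reverse complement in capitals: Dlk1 at chr12:109452573-109452872 (plus strand), Meg3 at chr12:109540746-109541045 (plus), Mest at chr6:30737800-30738099 (plus) and Peg3 at chr7:6730370-6730669 (minus).
Dlk1: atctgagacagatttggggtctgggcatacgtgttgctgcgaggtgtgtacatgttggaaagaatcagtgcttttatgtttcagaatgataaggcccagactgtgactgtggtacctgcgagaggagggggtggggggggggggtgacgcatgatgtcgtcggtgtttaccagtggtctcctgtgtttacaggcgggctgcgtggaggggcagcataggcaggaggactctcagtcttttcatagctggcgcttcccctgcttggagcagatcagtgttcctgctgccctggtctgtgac
Meg3: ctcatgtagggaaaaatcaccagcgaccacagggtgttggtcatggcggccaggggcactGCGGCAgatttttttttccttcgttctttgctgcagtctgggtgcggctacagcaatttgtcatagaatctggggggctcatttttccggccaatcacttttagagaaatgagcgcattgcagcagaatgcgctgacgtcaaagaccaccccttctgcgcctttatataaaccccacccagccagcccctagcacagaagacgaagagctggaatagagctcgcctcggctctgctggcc
Mest: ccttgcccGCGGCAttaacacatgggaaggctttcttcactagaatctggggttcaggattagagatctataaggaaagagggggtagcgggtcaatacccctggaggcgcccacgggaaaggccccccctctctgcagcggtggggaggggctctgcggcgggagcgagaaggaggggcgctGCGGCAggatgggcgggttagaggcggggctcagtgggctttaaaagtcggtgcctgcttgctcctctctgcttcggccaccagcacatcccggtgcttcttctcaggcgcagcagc
Peg3: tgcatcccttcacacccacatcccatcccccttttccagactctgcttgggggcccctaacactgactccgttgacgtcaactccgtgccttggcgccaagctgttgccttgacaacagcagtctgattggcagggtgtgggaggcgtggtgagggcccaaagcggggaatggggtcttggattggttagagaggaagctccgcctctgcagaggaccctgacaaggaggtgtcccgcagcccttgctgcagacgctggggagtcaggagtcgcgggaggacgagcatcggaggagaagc
The Meg3 window shown holds 1 hexamer and the Mest window shown 2, and the Dlk1 and Peg3 windows hold none. Windows of Meg3 at chr12:109545148-109545447 and of Mest at chr6:30733256-30733555, which are not shown, hold none. A further Mest window at chr6:30737803-30738102 overlaps the one shown and holds 2.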

How the data were processed

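Total RNA of 6 samples was measured on Agilent 1-colour mouse arrays. Per the file headers, the deposited spot intensity had its background subtracted and was detrended by Feature Extraction (version 10.7, per the submitters' processing notes) and not normalized between arrays. The deposited marks, a score of 0 or 1, tell which spots are outliers, saturated or well above background. The deposited table of processed values is log2-scaled. Each column correlates best with its own array (r 0.9989 or more, against 0.992 or less with others), its median is 6.17, so genes were not centred, and sorted values of the columns lie at most 0.084 apart. How that table was made is not given in the sources used here, and it served as an alternative.

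Unmarked spots of a probe were averaged and scaled by the array's 75th percentile of log2 signal. RefSeq accessions (GRCm38.p6) named 27668 of 41174 probes, and the rest kept the names in the files. Probes were compared when any group had both its arrays well above background (24144 probes), and the brightest of them stood for its gene (15646 genes). An at least N-fold value sets the bright arrays' mean against, on each dim array, its own signal or the array's lowest signal well above background, whichever is higher.

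Groups were compared with limma 3.58 in R 4.3 (two-sided, all 6 arrays, no covariates, Benjamini-Hochberg over all genes, threshold 0.05). Arrays of the same number deviated together from their group means (correlations 0.911 to 0.915 for the 3 pairs of groups), so the numbers were taken as pairing them. The median SE was 0.318, and 0.117 with the number as a block. Tested on simulated data for Gadd45a against Flag over 15646 genes, the fit without a block recovered 0% of 2-fold and 0% of 4-fold changes, and the fit with the block 42% and 77%. The fit without a block made 0 false calls and the fit with the block 5.

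The genes and lists were chosen with earlier results of these data known. Besides the 10 genes, a rule named neighbours and other imprinted genes above background on all 6 arrays, 6 of them always, 7 genes of imprint maintenance, the 3 nearest genes to Dlk1, and design genes. Alternatives were another background correction, quantile normalization, the deposited table, other filters on dim probes, the mean of a gene's probes, replicate and slide blocks, and leaving out each array.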

Additional observations from a re-analysis of the deposited data

How the results depend on the processing

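No imprinted gene passed limma's test (adjusted p under 0.05) in any of the 3 comparisons under any alternative run. The replicate block, which pairs arrays of the same number, left the calls at 0 of 9 imprinted genes and 0 of all genes in each comparison and changed no other call. With it, 3 imprinted genes had an unadjusted p under 0.05 for Gadd45a against Flag, 1 for G39A against Flag (Peg3, -0.27 ± 0.10, limma's adjusted p = 0.991; 2.89% of all genes did) and 2 for Gadd45a against G39A (H19 and Mest; 8.88% of all genes). Over all genes, slide as a random block gave 19 calls for Gadd45a against Flag, 3 for G39A against Flag and 7 for Gadd45a against G39A, where the fit without a block gave 0 in each. Leaving out 1 array kept 0 calls for imprinted genes and for all genes in every comparison, but it unbalances the replicate numbers and brings their difference into the comparison: 52 single-gene differences then changed sign, with every gene affected. For Gadd45a against Flag the log2 difference then ranged over -3.90 to 2.33 for Dlk1, -1.29 to 1.40 for Meg3, -3.04 to 1.97 for H19, -1.88 to 1.65 for Peg3, -3.17 to 1.71 for Mest, -0.41 to 0.25 for Grb10, -0.67 to 0.015 for Plagl1, -0.34 to 0.23 for Ndn and -0.76 to 0.41 for Phlda2. For G39A against Flag the log2 difference then ranged over -3.24 to 2.99 for Dlk1, -1.67 to 1.17 for Meg3, -2.57 to 2.45 for H19, -2.05 to 1.51 for Peg3, -2.44 to 2.44 for Mest, -0.47 to 0.37 for Grb10, -0.12 to 0.075 for Plagl1, -0.19 to 0.38 for Ndn and -0.93 to 0.24 for Phlda2. For Gadd45a against G39A the log2 difference then ranged over -3.60 to 2.28 for Dlk1, -1.11 to 1.72 for Meg3, -2.89 to 1.94 for H19, -1.62 to 1.94 for Peg3, -3.03 to 1.56 for Mest, -0.45 to 0.39 for Grb10, -0.64 to 0.039 for Plagl1, -0.42 to 0.12 for Ndn and -0.21 to 0.55 for Phlda2. Another 9 differences, each under 0.06 in size in the fit reported, changed sign elsewhere. For G39A against Flag, Grb10 was at 0.048 and Plagl1 at 0.0087 with slide as a fixed block, and at 0.024 and 0.0075 with slide as a random block. For the same pair Mest was at -0.019 with normexp background correction, -0.013 with quantile normalization and -0.018 with the deposited table, and Plagl1 at 0.00033 with quantile normalization. For Gadd45a against G39A, Grb10 was at 0.020 with the mean of a gene's probes. The count of 5 imprinted genes at least 2-fold higher in replicate 2 in all 3 groups was the same under the 6 alternatives run for it. Over those, the mean replicate difference ranged over 5.61 to 5.81 for Dlk1, 4.69 to 4.92 for H19, 4.32 to 4.46 for Mest, 3.26 to 3.50 for Peg3, 2.20 to 2.60 for Meg3, 0.44 to 0.76 for Grb10, 0.47 to 0.53 for Ndn, -0.45 to -0.13 for Plagl1 and -0.42 to -0.14 for Phlda2. Against -0.24 as reported, Plagl1 was -0.45 with quantile normalization and with the deposited table, and -0.13 with the mean of its probes. Phlda2 was -0.14 with normexp and -0.24 with quantile normalization and with the deposited table, against -0.42 as reported. Without the filter on dim probes the median of all genes was -0.12 in place of 0.11. Probes near the background limit what Peg10 and Phlda2 can show.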
